A study of Mus musculus with 7 samples.

Results

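The subject is the colon epithelium of mice given PhIP and then DSS, taken 1 day after DSS ended, set against untreated epithelium. Its members are 2 of the series' 7 RNA sequencing libraries, found by their sample titles. The treated mice were female hCYP1A mice on the C57BL/6 strain, 6 weeks old, that received PhIP (2-amino-1-methyl-6-phenylimidazo[4,5-b]pyridine) in 2 doses of 100 mg/kg body weight 4 days apart, and a week later 1.5% DSS to drink over 5 days. The control mice were of the same genotype, sex and age and received nothing. The library of hCYP1A mice given the same DSS course without PhIP and killed on the same day is set beside the pair and shares its control. Within the pair, PhIP and DSS cannot be told apart, since the treated mice received both. Each library was 1 pool of RNA in equal amounts from 3 mice, prepared from epithelium scraped off the colon's muscle layer. The labels give the pathology of the control as normal and of both day 1 libraries as colitis. With 1 pool per condition there is no replicate error and no test: every interval below is an exact 95% interval for counting error only, and no difference is called significant.

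DSS (dextran sulfate sodium) is a sulfated polysaccharide that damages the colon's epithelial lining when drunk, lets luminal bacteria reach the tissue and brings on an acute colitis with neutrophil influx, ulceration and later re-epithelialization. PhIP is a heterocyclic amine formed in meat cooked at high heat. The human cytochrome P450 enzyme CYP1A2 activates it by N-hydroxylation to a form that binds DNA, which is why mice with human CYP1A genes are used to study it. The healthy colon surface is made of absorptive colonocytes, which take up salt, water and butyrate, and of mucus-secreting goblet cells, both renewed from stem cells at the crypt base.

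The control library held 7664276 uniquely mapped reads and the PhIP/DSS library 8536432, with reads on 15960 and 16048 genes, and the library of DSS alone held 8730073 reads. Levels are given in RPKM (unique reads scaled by gene length and library total) and folds are ratios of unique reads scaled by library total alone. Mouse Cyp1a1 and Cyp1a2 had no read in any library, and the tables list no human CYP1A gene. The scraped material was epithelial by its markers. All 14 epithelial markers were measured, and their RPKM summed to 11377 in the control and 13243 in PhIP/DSS. Epcam, an epithelial adhesion molecule, was at 718 and 860.0 RPKM, and the homeobox factor Cdx2 of intestinal identity at 76.3 and 115. RNA of other cells was present too. The summed level of 23 neutrophil markers, of which 19 were measured, was 4.51 RPKM in the control, 1202 in PhIP/DSS and 55.1 in DSS alone, and that of macrophage and monocyte markers 56.4, 639.7 and 126. S100a9, S100a8 and Lcn2, at 426, 250 and 249.5 RPKM in PhIP/DSS, held most of its neutrophil sum. All 19 were at least 2-fold higher, but only 1, Cxcr2, had 10 or more control reads. Cxcr2 was at 1.46 RPKM in the control, 5.50 in PhIP/DSS and 1.24 in DSS alone. In bulk RNA of this kind, a change in the number of cells of a type and a change in RNA per cell cannot be told apart.

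**Figure D1:**
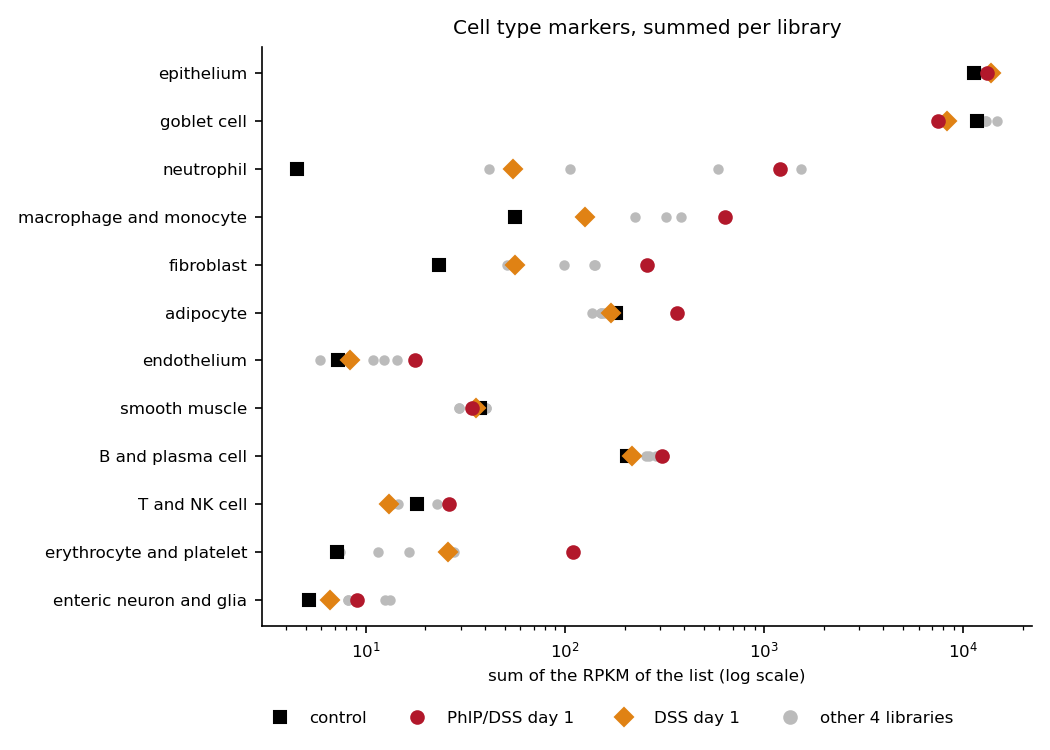
Each point is the RPKM of a cell type's marker genes summed within 1 library, on a log scale. Black squares are the control, red circles PhIP/DSS day 1, orange diamonds DSS day 1 and grey points the other 4 libraries. PhIP/DSS day 1 lay above the other libraries in macrophage, fibroblast, adipocyte, endothelial, T and NK cell and erythrocyte markers and below them in goblet cell markers, while for neutrophil markers DSS day 3 was higher.

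Of 18036 genes listed in at least 1 library, 16922 had a read in this pair and 13729 had at least 10 reads over it (the measured genes below). Of these, 1909 were at least 2-fold higher in PhIP/DSS (percent of measured genes 13.9) and 1670 at least 2-fold lower (12.2), 26.1 percent in all. The median log2 ratio was 0.00, and 50.2 percent of genes had a ratio above 1. The tail of large differences was longer upward: 405 genes were at least 10-fold higher and 125 at least 10-fold lower, 33 and 2 at least 100-fold. A gene without control reads that has at least 10 reads in the pair can only be higher. This held for 110 genes, and 839 of the 1909 had under 10 control reads. Over the genes with at least 10 control reads, 8.64 percent were 2-fold higher and 12.7 percent 2-fold lower. Genes called lower held 13.6% of the control's reads and 4.56% of those of PhIP/DSS, and genes called higher 3.70% and 11.6%. For DSS alone on the same day, 6.75 percent of 13440 measured genes were 2-fold above the control and 9.02 percent 2-fold below it. Both comparisons share the control library, and chance deviations of that library enter both. Below, a gene of a list is counted as higher or lower only past 2-fold, and where 3 values are given they are the control, PhIP/DSS on day 1 and DSS alone on day 1, in that order.

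**Figure D2:**
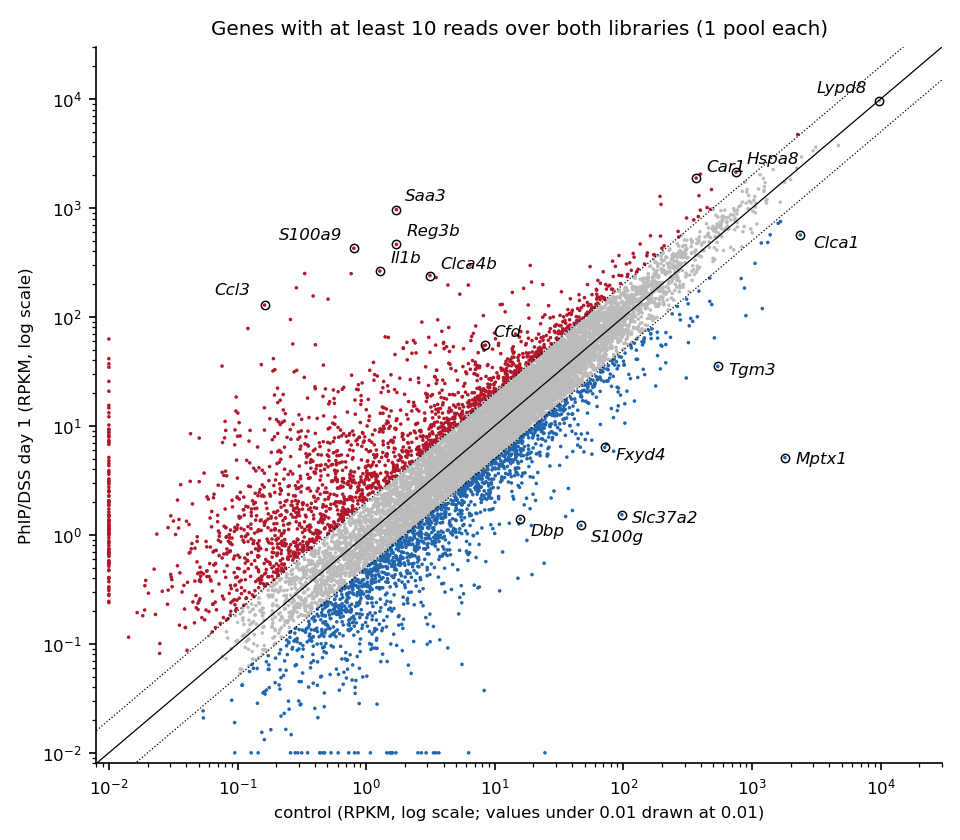
Each point is 1 of the 13729 measured genes, with its level in the control (horizontal) and in PhIP/DSS day 1 (vertical), both in RPKM on log scales. Red and blue points lie at least 2-fold above and below the solid line of equal levels, whose 2-fold bounds are dotted, and values under 0.01 RPKM are drawn at 0.01. Lypd8 lay near equality, Saa3, Ccl3 and Reg3b far above it, and Mptx1, Slc37a2 and S100g far below.

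The most abundant transcripts included both stable and strongly shifted genes. Lypd8, whose product keeps flagellated bacteria off the colon surface, led both libraries at 9779.5 and 9596 RPKM, and Krt8, Krt19, Actg1 and the translation factor gene Eef1a1 also had ratios close to 1. By gain in level, cytoplasmic actin Actb came first, at 2268 in the control and 4725 in PhIP/DSS, followed by the calcium-binding protein gene S100a11 (396 and 2044) and carbonic anhydrase Car1 (368 and 1881). The constitutive chaperone gene Hspa8 gained from 749 to 2135 RPKM and the glutathione peroxidase gene Gpx2 from 193 to 1278. By loss in level, Mptx1, a mucosal pentraxin gene (chromosome 1, 174330518 to 174332877, GRCm38.p6), and Clca1, a secreted goblet cell protein gene, stood out: Mptx1 was at 1804 RPKM in the control and 5.11 in PhIP/DSS, 353-fold lower (interval 254 to 507), and Clca1 at 2374 and 564. The pancreatic granule protein gene Sycn (1203 and 119), the mitochondrial creatine kinase gene Ckmt1 (1666 and 750.0) and the mucus lectin gene Zg16 (4704 and 3738) completed the largest losses in RPKM, although Zg16 was within 2-fold.

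Neutrophil-attracting CXC chemokines had the highest median of the pathway lists. All 7 measured members of 8 were at least 2-fold higher in PhIP/DSS, with a median log2 ratio of 4.63 (genes without control reads set at their bound) against 2.62 in DSS alone, but only 2 members had 10 or more control reads. Cxcl5, made by epithelium, was at 0.867 RPKM in the control, 21.5 in PhIP/DSS and 11.1 in DSS alone. Cxcl1 was at 0.271, 10.3 and 3.33 RPKM, 38.2-fold higher in PhIP/DSS (interval 10.2 to 320.2). For Cxcl2, with 1 control read against 724 in PhIP/DSS, the levels were 0.120, 78.3 and 4.02, a ratio of 650.0 (116 to 25709.8). Cxcl3 had no control read and was 91-fold higher at a floor of 3 control reads (interval from 73.5), at 34.6 RPKM against 2.34 in DSS alone. For each of these ligands DSS alone lay between the control and PhIP/DSS. Cxcl1, Cxcl2 and Cxcl3, ligands of the receptor encoded by Cxcr2 (1.46 and 5.50 RPKM), lie close together on chromosome 5. Their promoters (RefSeq, GRCm38.p6, 250 bases before to 50 after the start) are shown because each holds the NF-kB motif GGGNNTTTCC on one strand or the other, in capitals:
Cxcl1, chr5:90890995-90891294, plus strand: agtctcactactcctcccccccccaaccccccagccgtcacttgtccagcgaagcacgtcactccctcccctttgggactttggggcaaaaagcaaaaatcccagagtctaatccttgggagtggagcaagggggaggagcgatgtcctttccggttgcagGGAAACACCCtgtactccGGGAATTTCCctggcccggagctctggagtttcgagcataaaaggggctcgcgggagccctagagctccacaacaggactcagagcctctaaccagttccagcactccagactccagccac
Cxcl2, chr5:90903649-90903948, plus strand: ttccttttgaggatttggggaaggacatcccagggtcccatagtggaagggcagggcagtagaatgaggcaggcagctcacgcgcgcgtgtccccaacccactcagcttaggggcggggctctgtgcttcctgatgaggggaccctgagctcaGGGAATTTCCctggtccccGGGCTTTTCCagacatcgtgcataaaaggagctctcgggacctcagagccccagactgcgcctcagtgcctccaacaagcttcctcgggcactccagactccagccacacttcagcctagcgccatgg
Cxcl3, chr5:90785851-90786150, plus strand: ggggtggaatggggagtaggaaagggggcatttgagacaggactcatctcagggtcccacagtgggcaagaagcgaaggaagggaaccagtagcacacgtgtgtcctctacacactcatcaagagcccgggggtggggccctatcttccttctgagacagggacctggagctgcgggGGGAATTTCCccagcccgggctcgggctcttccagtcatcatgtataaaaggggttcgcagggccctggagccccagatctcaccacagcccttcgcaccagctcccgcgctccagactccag
Of the 6 measured members with a promoter in the table, 3 held the motif, against 1.89 percent of 27025 genes with a promoter. Among the genes at least 2-fold higher with a promoter the share was 3.07 percent, and among those lower 1.79 percent. A match is a description of the letters, not evidence of binding.

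Most interleukin 1 family genes and CC chemokine genes measured were higher, many of them from few control reads. Of 13 measured IL-1 family genes 8 were higher and 1, the receptor gene Il1r1 (7.30 and 3.00 RPKM), was lower; of the 9 with at least 10 control reads, 4 were higher. Il1b had 1.28 RPKM in the control, 263 in PhIP/DSS and 17.7 in DSS alone, a 206-fold difference from the control (interval 120.5 to 388), and reads covered 37% of its length in the control and 99.8% in PhIP/DSS. Il1a was at 0.330, 27.9 and 3.19 RPKM. The natural antagonist gene Il1rn was abundant already in the control, at 55.1 RPKM against 289 and 94.7. The decoy receptor gene Il1r2, without a control read, was 45.8-fold higher at the 3-read floor (interval from 36.8), at 13.2 RPKM. Il33, an alarmin of the family, was at 0.715, 13.4 and 8.56 RPKM and its receptor gene Il1rl1 at 0.205, 16.4 and 2.89. Il18, a ligand gene abundant in the control, stayed within 2-fold at 79.2, 105 and 126 RPKM, the highest in DSS alone. Among CC chemokines, 10 of 13 measured were higher and 1 lower, but 3 had no control read, and of the 6 with 10 or more control reads 3 were higher and 1 lower. Ccl3 and Ccl4, which attract monocytes and are made largely by myeloid cells, went from 1 and 2 control reads to 128 and 156 RPKM, ratios of 791 (142 to 31277) and 402 (111 to 3326), and were at 3.42 and 3.23 RPKM in DSS alone. Ccl6 went the other way, at 196 RPKM in the control, 55.1 in PhIP/DSS and 103 in DSS alone.

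TNF pathway genes and IL-6 family genes were higher in part. Tnf was at 0.403 RPKM in the control, 21.9 in PhIP/DSS and 3.89 in DSS alone, and its second receptor gene Tnfrsf1b at 6.61, 66.2 and 20.5. The NF-kB subunit genes Rela (30.7 and 35.3 RPKM), Nfkb1 (23.2 and 27.8) and Relb (33.9 and 21.6) stayed within 2-fold, while the inhibitor gene Nfkbia was 3.02-fold higher and the adhesion molecule gene Icam1 9.94-fold. Of 18 measured genes of this list 9 were higher and 0 lower. Osm, an IL-6 family cytokine of myeloid cells without a control read, was at 9.34 RPKM in PhIP/DSS and 0.300 in DSS alone. At the 3-read floor it was 45.5-fold above the control (interval from 36.5). Its receptor gene Osmr was 10.2-fold higher. The feedback inhibitor gene Socs3 was at 2.71, 89.7 and 16.7 RPKM, against 42.9 and 56.8 RPKM for Stat3 itself. Of 13 measured IL-6 family genes 6 were higher and 2 lower, against 13.9 and 12.2 percent of all measured genes. Of the 9 with 10 or more control reads 3 were higher and 2 lower. The lower ones were Lifr, the receptor gene of leukemia inhibitory factor (2.65, 0.388 and 0.261 RPKM), and the ligand gene Ctf1 (1.84, 0.610 and 0.852). The lipopolysaccharide co-receptor gene Cd14 was at 23.6 RPKM in the control, 198 in PhIP/DSS and 46.8 in DSS alone, whereas Tlr4 was at 8.72 and 8.01 and the flagellin receptor gene Tlr5 3.94-fold lower. Myeloid markers, given above, moved with these genes, and their part was not tested.

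Prostaglandin genes went both ways. The inducible cyclooxygenase gene Ptgs2 was at 0.189 RPKM in the control, 32 in PhIP/DSS and 2.01 in DSS alone, 169-fold above the control (interval 77.6 to 463), and the prostaglandin E synthase gene Ptges at 0.572, 12.1 and 0.879. The breakdown enzyme gene Hpgd was at 163, 70.1 and 95 RPKM, and the uptake transporter gene Slco2a1, which feeds prostaglandins to it, at 79.2, 29.9 and 32.6. DSS alone was thus nearer the control for Ptgs2 and Ptges and nearer PhIP/DSS for the breakdown enzyme and the uptake transporter. The constitutive cyclooxygenase gene Ptgs1 was at 1.32 and 1.35 RPKM. Over the 17 measured genes 6 were higher and 4 lower, with a median log2 ratio of -0.03. Over the 15 with 10 or more control reads 4 were higher and 4 lower. The shares over all measured genes were 13.9 percent higher and 12.2 percent lower.

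Many antimicrobial and acute phase genes were higher, several of them from few control reads. Of 26 listed, 23 were measured. Of these 15 were at least 2-fold higher and 3 lower, and of the 14 with 10 or more control reads 6 were higher and 3 lower. The lower share, 3 of 23, was close to the 12.2 percent of all measured genes. The serum amyloid A gene Saa3 (chromosome 7, 46711998 to 46719615, GRCm38.p6) had 1.72 RPKM in the control, 965 in PhIP/DSS and 55.2 in DSS alone, 561-fold above the control (interval 272 to 1396), whereas its paralogs Saa1 (1283 and 1174 RPKM) and Saa2 (113 and 89.3) were high in both libraries and within 2-fold. Saa1 and Saa2 are near-identical, so their split is uncertain. Reg3b, a bactericidal lectin, was at 1.72, 463 and 40.0 RPKM, 269.5-fold above the control. Hp (haptoglobin, which binds free hemoglobin) had 3 control reads and 185 RPKM in PhIP/DSS, a ratio of 646 (221 to 3134). The leukocyte protease inhibitor gene Slpi was at 3.50, 229.8 and 56.4 RPKM, and Pglyrp1, which binds bacterial peptidoglycan, at 309.8, 809 and 945, the highest in DSS alone. The lower genes were Ang4, a goblet and Paneth cell ribonuclease (178 and 23.3 RPKM), the protease inhibitor family gene Wfdc2 (334 and 97) and Pigr, which carries IgA across the epithelium (1598, 723 and 1195). Retnlb, a goblet cell bactericidal protein gene, was at 1227 and 1864 RPKM. Several genes of this list, among them S100a8, S100a9, Lcn2, Ltf, Ngp and Hp, are also made by neutrophils. The granule protein genes Mmp8 and Ngp, the receptor gene Fpr1 and the lectin gene Clec4e, all neutrophil markers, had no control read and reached 12.1, 14.6, 8.79 and 41.4 RPKM in PhIP/DSS, and Mpo had no read in any of these 3 libraries. How much of the antimicrobial group came with neutrophils was not tested.

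Complement and matrix genes were higher as groups, while clotting and matrix protease genes were higher mainly among those with few control reads. In the coagulation and fibrinolysis list 14 of 16 measured genes were higher and 1 lower, with a median log2 ratio of 4.25 against 1.29 in DSS alone, though only 6 members had 10 or more control reads and 4 of those were higher and 1 lower. Plat (tissue plasminogen activator) was at 0.205 RPKM in the control, 22.2 in PhIP/DSS and 8.14 in DSS alone, 108-fold above the control (interval 42.1 to 399.5). Plaur, the urokinase receptor gene, was at 6.82, 70.6 and 29. Both were highest in PhIP/DSS, with DSS alone in between. The coagulation initiator tissue factor, F3, was at 34.7, 75.9 and 42.9 RPKM, while its inhibitor Tfpi was 3.86-fold lower (interval 2.85 to 5.29). Complement C3 was at 1.83, 27.4 and 5.27 RPKM and the C1 inhibitor gene Serping1 at 1.35, 22.4 and 5.11, and 11 of 14 measured complement genes were higher and 0 lower (8 of the 11 with 10 or more control reads). The alternative pathway factor Cfb was the exception in level, at 52.8 RPKM in the control against 45.3.

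All 18 collagen and matrix genes were measured and all were higher, the least being Col4a2 at 6.32-fold, 16 of them with 10 or more control reads, with a median log2 ratio of 4.13 and of 1.72 in DSS alone. Col1a1, a chain of fibrillar type I collagen, was at 1.16 RPKM in the control, 29.6 in PhIP/DSS and 7.71 in DSS alone. Col18a1, of the basement membrane, had the largest ratio of the list, at 0.301, 12.6 and 2.21 RPKM (42.1-fold, interval 24.4 to 79.4), and tenascin C, Tnc, was at 0.257, 9.24 and 1.60. Of 19 measured metalloproteinase and inhibitor genes 14 were higher and 2 lower, but of the 7 with 10 or more control reads the split was 2 and 2. The stromelysin gene Mmp10 had 1 control read and 35.4 RPKM in PhIP/DSS, a ratio of 467 (83.4 to 18476). The collagenase gene Mmp13 was at 0.195, 32.8 and 3.94 RPKM and the inhibitor gene Timp1 at 0.288, 32.4 and 1.52, while Timp3 was at 21.6, 8.13 and 3.47 and the protease gene Adamts15 at 15.4, 1.26 and 3.27. Fibroblast markers, which include 3 of these collagens, were mostly higher too. Their summed level was 23.4 RPKM in the control, 260.0 in PhIP/DSS and 56.1 in DSS alone. Of 15 measured 11 were higher and 1 lower, and of the 11 with 10 or more control reads 7 were higher and 1 lower. Dcn, a proteoglycan gene, was at 2.08, 58.4 and 11.8 RPKM. Smooth muscle markers summed to 37.8, 34.4 and 35.7 RPKM, with the contractile myosin gene Myh11 under 1 RPKM in all 3. The part of stromal cells in the matrix values was not tested.

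Summed markers of fat and blood were higher in the PhIP/DSS library than in any other, though some members went the other way. Adipocyte markers summed to 365 RPKM in it, to 182 in the control and 170.1 in DSS alone, and to between 138 and 158 in the other 4 libraries, and 10 of 15 measured were at least 2-fold above the control and 1 below. Much of the sum is Pnpla2 and Pparg, which epithelium also expresses. The defining genes of fat cells differed more. The adipokine gene Cfd was at 8.45 RPKM in the control, 55.2 in PhIP/DSS and 0.124 in DSS alone, the fatty acid carrier gene Fabp4 at 4.04, 51.1 and 0.532, and Adipoq (adiponectin) at 1.48, 6.94 and 0.0929. All 3 were below 1 RPKM in DSS alone. The lipid droplet gene Plin1 was at 0.472, 1.39 and 0. Car3, a carbonic anhydrase abundant in fat, followed at 7.64, 35.3 and 0.373. Red cell and platelet markers summed to 7.18, 110.2 and 26 RPKM, with 27.9 RPKM as the highest of the other 4 libraries. Hemoglobin beta, Hbb-bs, at 3.88, 73.9 and 16.3 RPKM, held most of the PhIP/DSS sum. Of 9 measured red cell and platelet markers 7 were higher and 2 lower. Of the 3 with 10 or more control reads 1 was higher and 2 were lower. Whether tissue beneath the epithelium entered this pool was not tested.

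**Figure D3:**
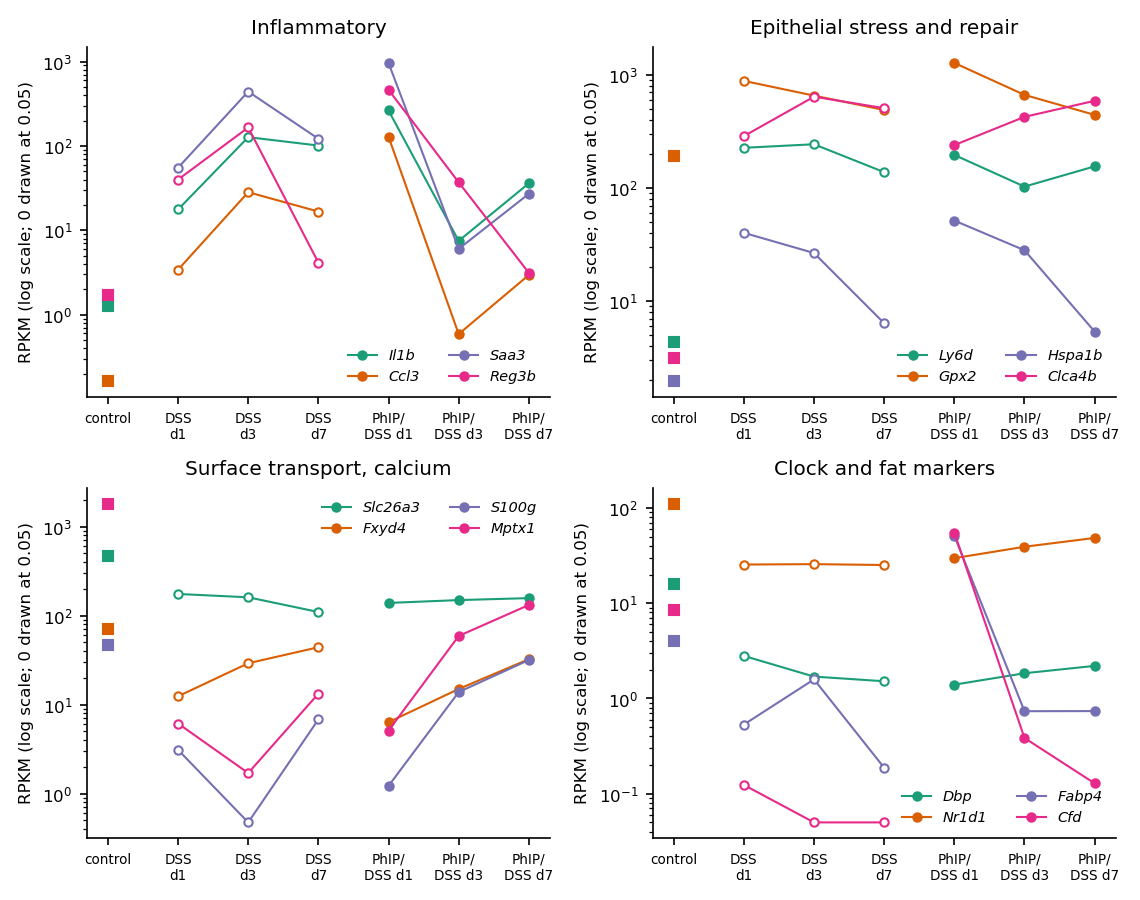
RPKM of 16 genes in each of the 7 libraries, on log scales, in 4 panels. Squares are the control, open circles the DSS libraries and filled circles the PhIP/DSS libraries on days 1, 3 and 7, lines join the days of an arm, each point is 1 pool, and 0 (Cfd in DSS on days 3 and 7) is drawn at 0.05. Il1b, Ccl3, Saa3, Reg3b, Cfd and Fabp4 were each highest of the 7 libraries in PhIP/DSS on day 1, and Dbp and Nr1d1 lay below the control in every treated library.

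Interferon response genes were higher as a group, class II genes in part, and class I genes at a share near that of all measured genes. All 25 interferon genes were measured, every ratio lay above 1, and 17 were at least 2-fold higher, with a median log2 ratio of 1.24 and 0.53 in DSS alone. The T cell chemokine gene Cxcl10 was at 2.45 RPKM in the control, 46.8 in PhIP/DSS and 6.44 in DSS alone, 19.1-fold above the control (interval 12.3 to 31.2), and Cxcl9 at 0.359, 11.9 and 3.15. Ido1, which degrades tryptophan, was at 3.94, 26.3 and 10.3 RPKM and the ubiquitin-like modifier gene Isg15 at 23, 64.5 and 32.6. The master factor gene Irf7 (75.4 and 98) stayed within 2-fold. The promoter of Cxcl10 is shown as an example of the interferon-stimulated response motif GAAANNGAAA (capitals, searched on both strands), which was in 13 of 19 promoters of the list and in 3.99 percent of 27025 genes with a promoter:
Cxcl10, chr5:92348840-92349139, minus strand: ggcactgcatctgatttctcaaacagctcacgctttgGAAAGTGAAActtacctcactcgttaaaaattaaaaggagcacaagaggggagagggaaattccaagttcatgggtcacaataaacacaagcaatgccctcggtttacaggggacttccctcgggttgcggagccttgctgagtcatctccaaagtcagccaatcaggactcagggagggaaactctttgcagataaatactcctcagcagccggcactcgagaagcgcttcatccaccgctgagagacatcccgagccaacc
Class II genes had a median log2 ratio of 1.41, with 5 of 9 at least 2-fold higher: Cd74, the invariant chain, was at 112 RPKM in the control, 314 in PhIP/DSS and 158 in DSS alone, and H2-Aa at 33.8, 90.3 and 39.3, with the transactivator gene Ciita at 1.27 and 1.14. Of class I and peptide loading genes 2 of 11 were higher, against 13.9 percent of all measured genes, and B2m was at 916 and 1476 RPKM. Reads of class II genes that share sequence may be divided unevenly. T and NK cell markers summed to 18.2 RPKM in the control and 26.1 in PhIP/DSS, and their part was not tested.

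Genes of wound repair and of a fetal-like epithelial state were higher, 22 of 27 measured, with 18 of the 23 that had 10 or more control reads and none lower. Ly6a, a surface antigen of regenerating colon epithelium, was at 196 RPKM in the control, 1079 in PhIP/DSS and 719 in DSS alone. Its relatives Ly6c1 (6.23, 196 and 92.2) and Ly6d (4.32, 196 and 227) had larger ratios, 31.5 and 45.4, and Ly6d was the 1 of these 3 with a higher level in DSS alone than in PhIP/DSS. Sprr1a, a cornified envelope precursor induced in injured epithelium, was at 33, 170.3 and 93.7 RPKM, the membrane protein gene Emp1 at 135, 468 and 222, and annexin A1, Anxa1, at 83.4, 235 and 162. Spp1 (osteopontin), which macrophages also make, had 3 control reads and 94.8 RPKM, a ratio of 367 (125 to 1783). Of the EGF receptor ligands, Areg was at 15.6, 65.4 and 42.2 RPKM and Ereg at 0.315, 11.5 and 3.96, while the receptor genes Egfr (10.9 and 15.5) and Erbb2 (60.6 and 32.7) were within 2-fold and Erbb3 (91.7, 35.6 and 48.9) was lower. Of the 7 measured squamous keratin genes 3 had no control read and 1 had 10 or more, so that most were measured only through PhIP/DSS and had to be higher. The one with the highest level, Krt14, was at 0.854 and 7.53 RPKM, while the squamous lineage factor Trp63 was under 0.1 RPKM in both libraries. Among simple keratins Krt7 (92.5, 241 and 218 RPKM) and Krt20 (448, 1008 and 941) passed 2-fold.

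Chaperones of the cytosol and mitochondria and the endoplasmic reticulum stress genes were higher as groups. Of 14 heat shock genes, all measured, 12 were at least 2-fold higher and 11 of these had 10 or more control reads, with a median log2 ratio of 1.93. The inducible HSP70 genes Hspa1a and Hspa1b, near-identical copies whose split is uncertain, were at 0.606 and 1.95 RPKM in the control, 20.6 and 51.6 in PhIP/DSS and 17.9 and 40.2 in DSS alone, 34-fold and 26.4-fold above the control. For both, DSS alone was nearer PhIP/DSS than the control. The HSP110 gene Hsph1 was at 6.53, 60.7 and 38.6 RPKM, the inducible HSP90 gene Hsp90aa1 at 82.5, 325 and 227, and the mitochondrial chaperonin gene Hspd1 at 63.4, 216 and 163. Its partner Hspe1, at 38.7, 147 and 94.9 RPKM, is shown with 2 overlapping matches to the heat shock element GAANNTTCNNGAA in capitals (searched on both strands). The element was in 3 of 10 promoters of the list (Hsph1, Hspd1 and Hspe1) and in 0.662 percent of 27025 genes with a promoter. Among the genes at least 2-fold higher with a promoter the share was 0.683 percent, and among those lower 0.778 percent. The element was added after the values had been seen.
Hspe1, chr1:55087898-55088197, plus strand: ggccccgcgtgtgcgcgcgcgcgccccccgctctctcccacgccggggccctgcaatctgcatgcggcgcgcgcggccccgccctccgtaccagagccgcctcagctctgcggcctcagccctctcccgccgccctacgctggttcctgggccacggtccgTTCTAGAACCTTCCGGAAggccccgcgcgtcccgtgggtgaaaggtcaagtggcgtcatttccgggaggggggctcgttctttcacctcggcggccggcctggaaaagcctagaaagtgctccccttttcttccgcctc
The transcription factor gene Hsf1, whose protein binds this element, was at 15.6 and 19.2 RPKM. In the unfolded protein response list 12 of 18 genes were higher and 0 lower. Hspa5 (BiP, the main chaperone of the endoplasmic reticulum) was at 119, 382 and 278 RPKM, Creld2 at 18.3, 63.8 and 45.5, and the glutathione-degrading enzyme gene Chac1 had 1 control read and 3.48 RPKM in PhIP/DSS, a ratio of 42.2 (7.21 to 1702). The pro-apoptotic factor gene Ddit3 (CHOP) was at 8.91 and 9.60 RPKM.

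**Figure D4:**
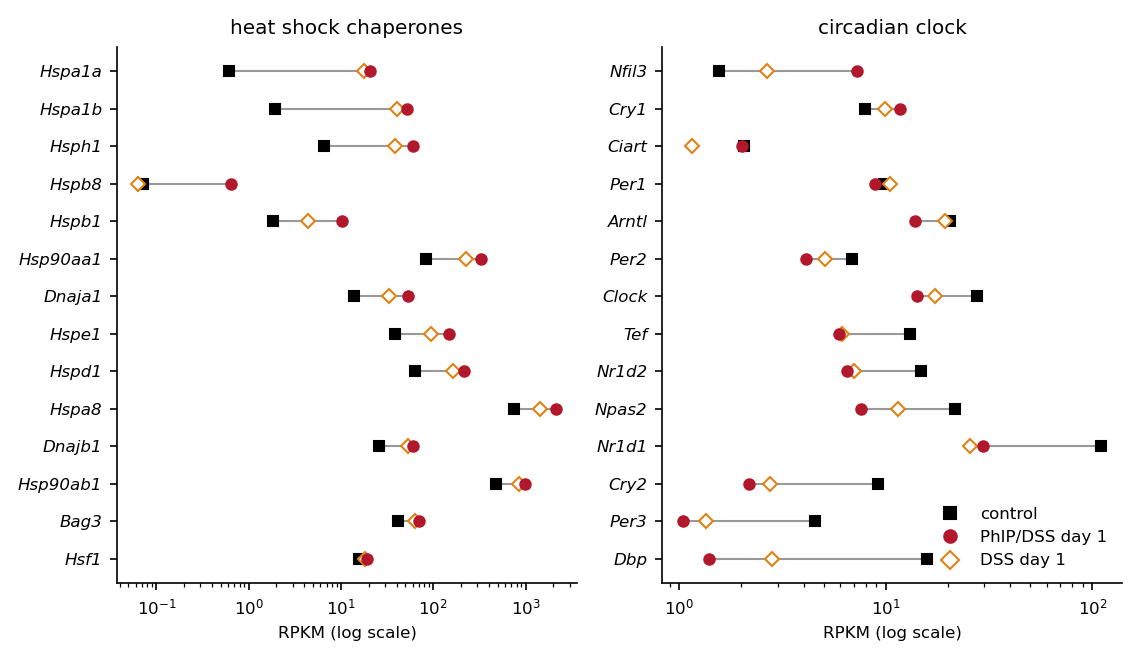
Levels of the heat shock genes (left) and circadian clock genes (right) in RPKM on log scales. Black squares are the control, red circles PhIP/DSS day 1 and orange diamonds DSS day 1, with a grey line between the control and PhIP/DSS. Every chaperone lay above the control in PhIP/DSS, while 7 clock genes lay at least 2-fold below it and Nfil3 above.

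Oxidative stress genes and oxidant-producing enzymes were higher together. Of 20 NRF2 targets, all with 10 or more control reads, 11 were higher and 0 lower. The heme oxygenase gene Hmox1, also abundant in macrophages, was at 1.68 RPKM in the control, 45.2 in PhIP/DSS and 8.13 in DSS alone, and the cystine transporter gene Slc7a11 at 0.438, 6.46 and 2.20. Gpx2, the gut's glutathione peroxidase, was at 887 RPKM in DSS alone, between the other libraries, and malic enzyme, Me1, at 1.56, 13.7 and 7.35. The gene of NRF2 itself, Nfe2l2, was at 90.2 and 90.3 RPKM. The antioxidant response motif TGACNNNGC was in 8 of 17 promoters of the list and in 14 percent of 27025 genes with a promoter (16.8 percent of the measured genes that have one). Its share was 15.1 percent among the genes at least 2-fold higher with a promoter and 16.5 percent among those lower. On the producing side, the inducible nitric oxide synthase gene Nos2 was at 1.41, 65.7 and 21.4 RPKM, and the epithelial hydrogen peroxide source Duox2 at 25.2, 67.5 and 64.6, with its maturation factor Duoxa2 at 12, 111 and 64. The phagocyte oxidase gene Cybb, a myeloid gene, was at 0.824, 12.8 and 2.05, while the epithelial oxidase gene Nox1 was within 2-fold (12.4 and 21.5). Arginase 1, Arg1, was 51.4-fold higher at 18 RPKM and the spermidine synthase gene Srm 3.35-fold higher at 47.5.

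DNA replication genes were higher, genes of mitosis less so, and most p53 targets were within 2-fold. All 27 replication genes had ratios above 1 and 19 were at least 2-fold higher, with a median log2 ratio of 1.16 and 0.91 in DSS alone. The cyclin gene Ccne1, which starts S phase, was at 2.52 RPKM in the control, 10.6 in PhIP/DSS and 5.95 in DSS alone, and the sliding clamp gene Pcna at 45.1, 99.8 and 81.6. Of 22 mitotic genes 5 were higher, the largest ratio being that of Birc5 (8.17, 21.9 and 15.9), and Mki67 was at 36.8, 32.4 and 43.4. Among 24 measured p53 targets, of interest because activated PhIP binds DNA, 2 were higher and 0 lower and the median log2 ratio was 0.18. Over all measured genes 13.9 percent were higher and 12.2 percent lower. The cell cycle inhibitor gene Cdkn1a was at 252, 259 and 231 RPKM, the p53 ubiquitin ligase gene Mdm2 at 13.8, 18.8 and 15.1, and the pro-apoptotic gene Bax at 17.6, 33.6 and 28.9. The exceptions, both with under 10 control reads, were Phlda3, an AKT inhibitor, at 0.792, 5.92 and 3.09 RPKM, and the low gene Ddit4l. A pair of p53 core sites, CATGNNNNNNCATG, was in 1 of 17 promoters of the list and in 0.833 percent of 27025 genes with a promoter (0.366 percent of the measured ones). Of 26 measured DNA repair genes 2 were higher and 1 lower, against the same 13.9 and 12.2 percent. The damage kinase gene Atm (3.95, 1.80 and 2.49) was lower, while the nucleotide excision repair genes Xpa and Xpc were within 2-fold. The last PhIP dose preceded the collection by more than a week. Crypt stem cell and Wnt target genes leaned lower, 5 of 18 measured against 2 higher: the stem cell receptor gene Lgr5 was at 2.71, 1.02 and 1.75 RPKM and the Wnt feedback gene Axin2 at 19.9, 8.10 and 6.53, against Ccnd1 (cyclin D1) at 27.1, 78.1 and 60.7.

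Genes that handle foreign chemicals were mixed, with 6 of 30 measured higher and 8 lower (median log2 ratio -0.37, and -0.35 in DSS alone). Over all measured genes the shares were 13.9 and 12.2 percent. Of the 27 with 10 or more control reads 5 were higher and 7 lower. Sult1a1, whose human counterpart sulfonates N-hydroxy-PhIP, was at 184 RPKM in the control, 44.1 in PhIP/DSS and 66.6 in DSS alone, 4.18-fold lower in PhIP/DSS (interval 3.80 to 4.60). Cyp2s1, an aryl hydrocarbon receptor target, was at 129, 40.9 and 59.4 RPKM and the drug efflux pump gene Abcb1a at 101, 36.2 and 39.4. These 3 genes were lower in both treated libraries, least so in DSS alone. The acetyltransferase gene Nat2 was at 13.9 and 18.9 RPKM, the receptor gene Ahr at 4.39 and 2.88, and the efflux pump gene Abcg2 at 47.8 and 48.8. Glutathione transferases were divided, with Gsta4 at 22.5, 59.1 and 45.9 RPKM and Gstt1 at 14.4, 6.14 and 6.77. Cyp2f2, a monooxygenase gene, was among the 10 genes with the lowest ratios of those with at least 10 reads in PhIP/DSS and at least 10 RPKM in the control, at 17.8, 0.890 and 2.30. The aryl hydrocarbon receptor core motif GCGTG was in 8 of 27 promoters of the list, or 29.6 percent, against 35.2 percent of 27025 genes with a promoter and 54 percent of the measured genes that have one.

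Goblet cell genes were lower as a group: 10 of 19 measured were at least 2-fold lower and 0 higher, with a median log2 ratio of -1.09 and -0.40 in DSS alone. Besides Mptx1 and Clca1, the secreted protease gene Klk1 was at 873 RPKM in the control, 184 in PhIP/DSS and 281 in DSS alone, the mucin gene Muc2 at 1180.0, 477 and 892, and the mucus-binding gene Fcgbp at 824, 225 and 325. The secretory fate factor Atoh1 was at 65.8, 27.3 and 38.3 RPKM, but the goblet maturation factor Spdef (40.5 and 33.7) and the mucin-folding gene Agr2 (943 and 1299) stayed within 2-fold. So did the mucus lectin gene Zg16 and the secreted Retnlb, whose levels are given above. Tuft cell genes were lower in 7 of 10 measured, among them the taste G protein gene Gnat3 (1.56 and 0.0998 RPKM), the channel gene Trpm5 (4.70, 0.535 and 1.10) and the lineage marker Dclk1 (2.85, 0.596 and 0.816), while Alox5ap, which myeloid cells also express, was higher. Enteroendocrine genes showed no common direction: 4 of 15 were higher and 1 lower, against 13.9 and 12.2 percent of all measured genes. Of the 11 with 10 or more control reads 1 was higher and 1 lower. The higher ones included cholecystokinin, Cck (1.67 and 9.51), and neurotensin, Nts (0.211 and 4.64). Reg4, a regenerating family lectin, was lower (274, 105 and 137), and chromogranin A, Chga, was at 57.6 and 46.3 RPKM. The gasdermin C genes, whose paralogs share sequence, were lower together, with Gsdmc4 at 346, 91.1 and 172 RPKM, Gsdmc2 at 214, 55.8 and 85.1 and Gsdmc3 at 103, 10.6 and 20.3. The pore-forming gene Gsdmd of pyroptosis was at 74.1 and 93.3.

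Sodium transport genes were lower as a group, and chloride, calcium and absorptive genes were divided. Of 19 measured sodium, proton and potassium transport genes 9 were lower and 1 higher. The sodium pump regulator gene Fxyd4 was at 71.6 RPKM in the control, 6.34 in PhIP/DSS and 12.4 in DSS alone, 11.3-fold lower (interval 7.74 to 17). Subunits of the epithelial sodium channel were all lower, with Scnn1a at 126, 40.9 and 60.4 RPKM, Scnn1b at 14.5 and 5.15 and Scnn1g at 9.68 and 4.11, as was the mineralocorticoid receptor gene Nr3c2 that controls them (48.2, 17 and 22.6). The colonic proton pump gene Atp12a was at 194, 33.4 and 71.2 RPKM, while the sodium/proton exchanger gene Slc9a3 was higher, at 43.8, 91.6 and 104. Chloride and bicarbonate genes were lower in 7 of 19 and higher in 4, the lower ones including the bicarbonate cotransporter gene Slc4a4 (26.8, 4.28 and 6.27), the calcium-activated chloride channel gene Ano1 (91, 20.5 and 40.3) and the sulfate transporter gene Slc26a2 (233, 65 and 86.3). Clca4a and Clca4b, close paralogs between which unique reads may be divided unevenly, went the other way, at 92.4 and 3.13 RPKM in the control, 366 and 239.9 in PhIP/DSS and 222 and 288 in DSS alone. For calcium uptake, the carrier gene S100g was at 46.8, 1.22 and 3.10 RPKM (38.3-fold lower, interval 16.1 to 119) and the vitamin D receptor gene Vdr at 199, 53.9 and 89.8. Of 6 measured calcium and vitamin D genes 3 were lower and 1, the low calcium pump gene Atp2b4 (0.236, 2.03 and 0.373), was higher. In salt and calcium uptake alike, DSS alone lay between the control and PhIP/DSS for each lower gene given with 3 values. Of 22 measured absorptive colonocyte genes, all with 10 or more control reads, 6 were higher and 3 lower. The surface carbonic anhydrase gene Car4 (1326, 482 and 579) was lower while Car1 and Krt20 were higher. Aqp8, a water channel gene, stayed within 2-fold at 287 and 267, and of 12 measured aquaporin and carbonic anhydrase genes 4 were higher and 2 lower. The guanylin gene Guca2a was at 1310.1 and 1199. Slc37a2, a sugar-phosphate transporter gene, had the second-lowest ratio among the genes named for large decreases, at 97.3, 1.53 and 4.46, and the transglutaminase gene Tgm3 was at 542, 35.2 and 111. Of 16 measured junction genes 13 stayed within 2-fold. The claudin gene Cldn4 (57.1, 160.1 and 88.5) was higher, and Cldn8 (50.9, 16.9 and 40.7) and occludin, Ocln (55.6, 26.7 and 28.1), lower. Among all measured genes 13.9 percent were higher and 12.2 percent lower.

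Respiratory chain, cholesterol and ribosomal protein genes stayed within 2-fold, while some transporters and regulators of energy metabolism did not. None of 25 respiratory chain genes passed 2-fold (median log2 ratio 0.09, from -0.26 to 0.87), and neither did any of 18 cholesterol genes (median -0.04) or of 18 ribosomal protein genes (median 0.36, all above 0). The butyrate transporter gene Slc5a8 was at 89.5 RPKM in the control, 33.4 in PhIP/DSS and 45.1 in DSS alone, and the mitochondrial coactivator gene Ppargc1a at 19.8, 3.37 and 6.16, while the fatty acid oxidation enzyme genes Acadm (67.8 and 52.7) and Hadha (100.4 and 117) were within 2-fold. Of 23 glycolysis and hypoxia genes 8 were higher and 1 lower. The glycolytic activator gene Pfkfb3 was at 2.21, 26.6 and 4.44 RPKM, the lactate exporter gene Slc16a3 at 7.43, 47 and 23.6, and the glycolytic enzyme gene Pgk1 at 172, 373 and 304, with Vegfa at 26.9 and 24.1.

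Circadian clock genes formed a further lower group, with 7 of 14 measured at least 2-fold lower and 1 higher and a median log2 ratio of -1.05, against -0.88 in DSS alone. Dbp, a clock output factor, was at 15.8 RPKM in the control, 1.40 in PhIP/DSS and 2.80 in DSS alone, 11.3-fold lower in PhIP/DSS (interval 7.13 to 18.9). The clock repressor gene Nr1d1 (REV-ERB alpha) was at 110.2, 29.7 and 25.5 RPKM, Per3 at 4.54, 1.04 and 1.35, and Cry2 at 9.12, 2.19 and 2.76. Dbp, Per3 and Cry2 were lowest in PhIP/DSS and Nr1d1 in DSS alone. Nfil3, which opposes Dbp at shared sites, was higher, at 1.55, 7.25 and 2.67. The core activator gene Arntl was at 20.4, 13.8 and 19.4, Clock at 27.7, 14.2 and 17.4, and Per1 at 9.79, 8.92 and 10.4, all within 2-fold. Neither the labels nor the file headers give the hour at which tissue was taken.

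**Figure D5:**
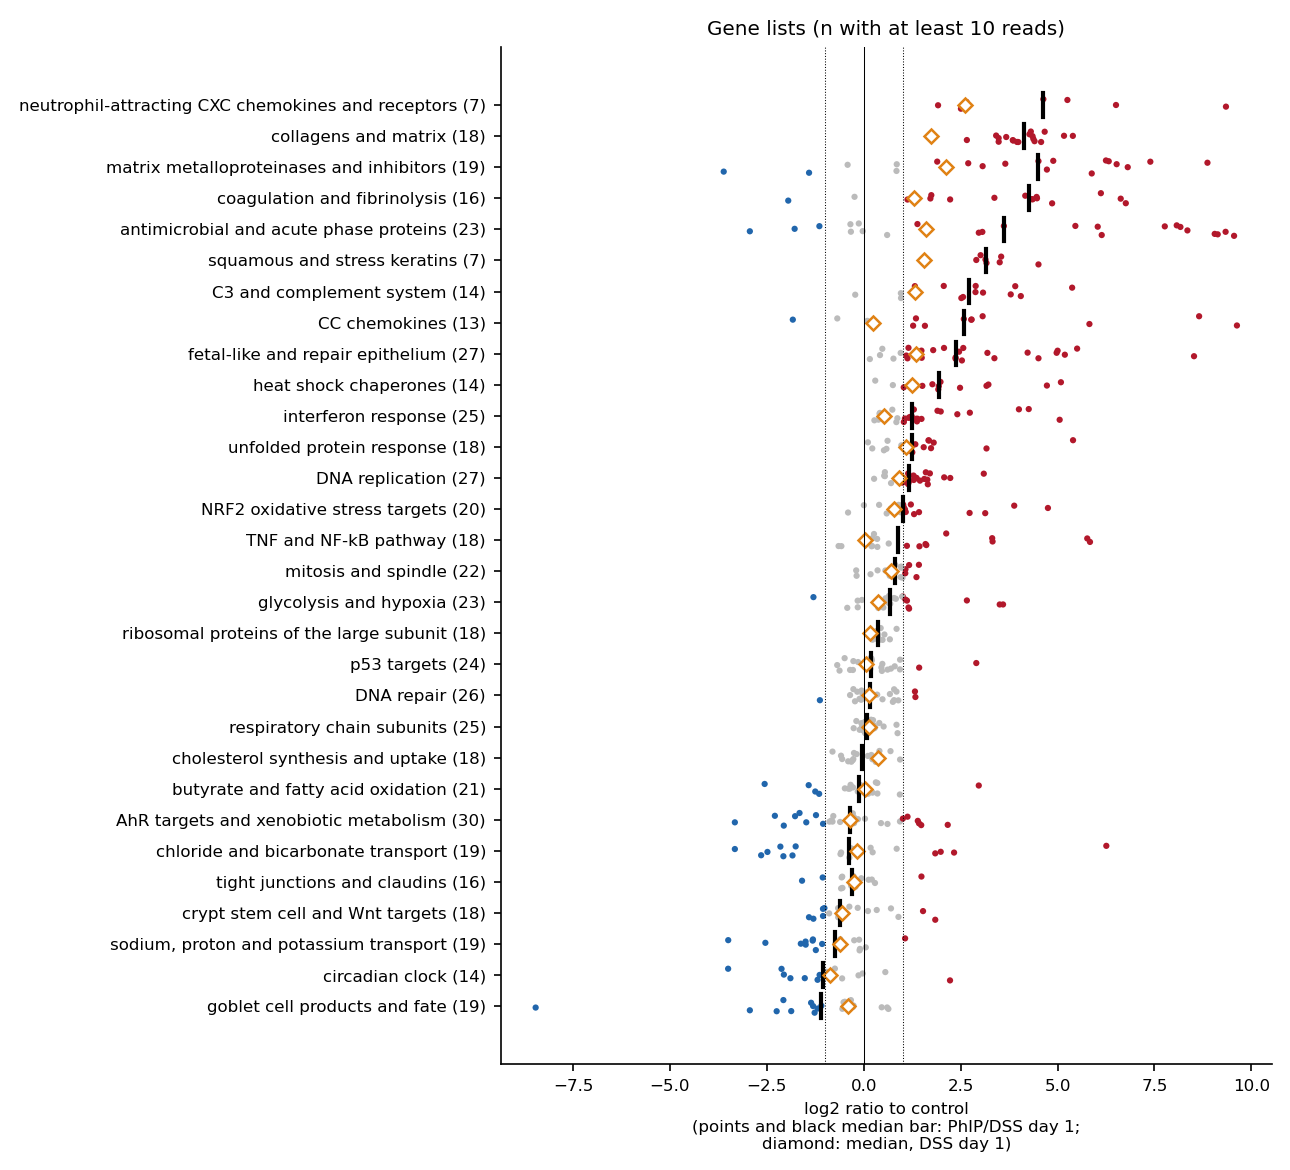
Log2 ratios to the control, with 1 row per gene list and the number of measured members in brackets. Points are members in PhIP/DSS day 1 (red at least 2-fold higher, blue at least 2-fold lower, grey between), the black bar is their median and the orange diamond the median of the same members in DSS day 1. Medians ran from 4.63 for neutrophil-attracting CXC chemokines to -1.09 for goblet cell products, and genes without reads in 1 library are drawn at their bound.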

How the data were processed

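RNA was enriched for poly(A) and random-primed for Illumina sequencing, per the labels' protocols. Each deposited table holds 1 gene per line with, per the file headers, its unique read count, its length, the percent of that length covered and its RPKM. The RPKM values as deposited equal the counts scaled by length and library total. The mm10 build and FastQC are named in the submitters' processing notes, whereas the sources used here name no aligner, counting tool, annotation or strand setting, so antisense and overlapping genes are uncertain. The day codes in the tables' names differ from the labelled days, and the labels were followed. Across the 7 libraries depth was between 7664276 and 8781886 unique reads.

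Tables were joined on gene ID, and a missing gene was entered as 0 reads. Genes with at least 10 reads over the pair were kept. Symbols came from a RefSeq table of GRCm38.p6, and 26 kept genes had none. Ratios of counts were scaled by library total, with exact 95% Clopper-Pearson intervals (scipy 1.17.1). A count of 0 was set to a floor of 3 reads over the group. The fold is then a bound that leaves out counting error in the other library, and the exact interval starts lower. Intervals and floors cover counting error only, since reads without molecular identifiers are not independent molecules. A gene was called at a ratio of 2 or more either way. The alternatives were TMM scaling (edgeR 4.0.16 in R 4.3.3), the median of ratios, totals without the 100 most abundant genes, other read minimums, a 4-fold threshold, the interval as threshold, and log2(RPKM + 1) or log2(RPKM + 0.1). The code was tested on simulated data.

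Genes were named by a rule: the extremes of ratio and of level, abundant genes with close levels, the extremes and the most abundant gene of each of 48 pathway and 20 marker lists, and genes opposite in DSS alone. Further genes were named for their role after their values had been seen. The comparison and the lists were chosen with earlier results of these data known. Of 1027 list genes 929 were measured, 98 had under 10 reads over the pair or are not listed, and 1 list name (Trop2) had no match. Promoters came from a RefSeq table of GRCm38.p6, which held one for 10921 of the measured genes. A few genes of the lists are counted but not reported by name here.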

Additional observations from a re-analysis of the deposited data

Results flagged for a closer look

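Of the 1909 genes at least 2-fold higher in PhIP/DSS on day 1, 888 were also at least 2-fold higher in DSS alone on the same day and 56 at least 2-fold lower in it. Over all 13440 genes measured for DSS alone, 6.75 percent were 2-fold higher and 9.02 percent 2-fold lower. Of the 1670 genes lower in PhIP/DSS, 896 were also 2-fold lower in DSS alone and 1 was 2-fold higher. Of the 56 genes, 4 had at least 10 RPKM in either library, which is why they are listed here. Both comparisons share the control library, each side is 1 pool, and the difference was not tested. The ratio to the control in PhIP/DSS was 6.52 (4.97 to 8.70) for the adipokine gene Cfd, 12.7 (8.04 to 21) for the fatty acid carrier gene Fabp4, 4.62 (3.68 to 5.86) for the carbonic anhydrase gene Car3 and 4.69 (4.15 to 5.30) for Thbs1 (thrombospondin 1, a matrix and platelet protein), with counting intervals in brackets. In DSS alone Cfd was at 0.124 RPKM, Fabp4 at 0.532, Car3 at 0.373 and Thbs1 at 2.94. On day 3 Cfd had 0.385 RPKM in PhIP/DSS and 0 in DSS alone, and on day 7 0.129 and 0. Thbs1 was at 7.17 RPKM in the control and 33.6 in PhIP/DSS on day 1. Cfd, Fabp4 and Car3 are in the adipocyte marker list, whose other members are described above.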

How the results depend on the processing

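Another scaling moved every log2 ratio by the same small amount, -0.0014 with TMM, 0.028 with the median of ratios and -0.017 with totals that omit the 100 most abundant genes, and gave between 1873 and 1972 genes at least 2-fold higher and between 1607 and 1710 lower. A count minimum of 50 reads gave 1284 higher and 1088 lower, and no filter 2696 and 2613. A 4-fold threshold gave 912 and 482 genes, and requiring the whole counting interval past 2-fold 1084 and 721. On the log2(RPKM + 1) scale, which understates the change of low genes, 1182 and 762 passed, and on log2(RPKM + 0.1) 1794 and 1490. Of 245 named genes past 2-fold, 245, 243 and 245 stayed past it under the 3 scalings and 237 on log2(RPKM + 1), and none changed direction under these. No paired analysis was possible because each condition is 1 pool and no test was made, and for the same reason no replicate could be left out. Depth limits genes with few control reads most: a ratio on 1 to 3 reads has an interval that spans more than a factor of 10. Spread between animals is not measured at all.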

Other observations

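Of 16 measured genes of metal handling 2 were higher and 2 lower, shares near those of all measured genes (13.9 and 12.2 percent). The transferrin receptor gene Tfrc, which takes up iron, was at 32.2 RPKM in the control, 103 in PhIP/DSS and 132 in DSS alone, and Steap4, a metalloreductase, at 1.04, 17.5 and 8.39. The iron exporter gene Slc40a1 stayed within 2-fold at 101 and 56.8 RPKM. The hepcidin gene Hamp2 was lower, at 5.35 RPKM in the control and 0.267 in PhIP/DSS. The abundant metallothionein genes stayed within 2-fold, with Mt1 at 581 and 646 and Mt2 at 163 and 292.

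Of 18 measured immediate early genes 6 were higher and 2 lower, and of the 16 with 10 or more control reads 4 and 2. The lower share, 2 of 18, was close to the 12.2 percent of all measured genes, of which 13.9 percent were higher. Ier3 was at 3.47 RPKM in the control, 55.1 in PhIP/DSS and 16.7 in DSS alone, and the phosphatase gene Dusp1 at 16, 59.4 and 17.1. The AP-1 gene Fos was at 131 and 81.7 RPKM, Fosb at 11.1, 3.07 and 2.79, and Klf4, a factor of differentiated surface cells, at 470.0, 227 and 259. In the IL-17 and IL-22 axis 7 of 13 measured genes were higher and 2 lower, the latter near the 12.2 percent of all measured genes. Of the 10 with 10 or more control reads 4 were higher and 2 lower. The 7 higher ones were the effector genes Lcn2, Reg3b, Reg3g, Nos2, Duox2 and Duoxa2, some of which other lists hold too, and the ligand gene Il17f. Il17f had no control read and 10 in PhIP/DSS, 2.99-fold higher at the 3-read floor (interval from 2.01). The receptor subunit gene Il17re was lower, at 18.2, 5.55 and 10.7 RPKM, and Il22ra1 was at 41 and 22.9. The ligand genes Il17a and Il22 each had 3 reads in PhIP/DSS and none in the control, at the 3-read floor, so no fold is given.

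Other genes with low ratios were Casp14, a caspase of cornifying epithelium (24.2 RPKM in the control and 0.549 in PhIP/DSS), the tubulin-binding genes Tppp (40.2 and 1.67) and Tppp3 (84.1 and 5.86), the heat-sensitive channel gene Trpv3 (19.5 and 0.432) and Nxpe2 (19.3 and 1.22). Kit, a receptor gene of mast cells and other cell types, was at 15.2, 2.84 and 6.36 RPKM, while mast cell protease gene Mcpt1 was at 10.7, 20.2 and 25. Mir196b had 16 control reads and 0 in PhIP/DSS, but the entry of a small RNA can take reads of a longer transcript over the same place. The letters AAAGTCC, part of a site of the colonocyte factor HNF4A, were in 6.49 percent of promoters of genes at least 2-fold higher and in 5.13 percent of those lower, against 4.84 percent of 27025 genes with a promoter and 5.03 percent of the measured ones, with Hnf4a itself at 341 and 263 RPKM.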
